A study of Mus musculus with 18 samples.

Results

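Intraflagellar transport (IFT) and BBSome genes were examined in round spermatids (RS) of the mouse, the haploid germ cells that have finished meiosis and have not begun to elongate. The genes were taken by their symbols: Ift followed by a number, Bbs followed by a number, and Ttc8, Ttc21b, Ttc26 and the Ttc30 genes, with the interferon-induced Ifit genes left out. This gave 29 genes of the 54232 in the count table. They comprised 28 protein-coding genes and Ift88os, an antisense RNA inside Ift88. Ift88os had 2 to 10 counts per library and did not pass the filter on low counts, so 28 of the 29 genes were tested.

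IFT moves protein cargo along the microtubules of cilia and flagella. In the IFT trains the IFT-B complex serves mainly outward travel with kinesin-II motors and the IFT-A complex mainly the return with dynein-2. The BBSome rides on these trains as an adaptor for membrane proteins and is assembled with the help of chaperonin-like BBS proteins. In the testis the same machinery takes part in building the sperm flagellum and in transport along the manchette, the microtubule skirt of the elongating spermatid head.

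The RS came from testes of mice aged 75 to 85 days and of 3 genotypes, WT, GRTH-KO and GRTH-KI, with 6 libraries of total RNA each and 18 in all; no strain is given. KO mice lack GRTH (DDX25), a testis RNA helicase, whereas KI mice, as the study describes them, carry a human GRTH gene with a missense mutation and make the non-phosphorylated protein without its phosphorylated form. The cells were separated by sedimentation in an albumin gradient after enzymatic digestion. Library totals lay between 18766971 and 26776555 counts, and 3 counts stood for 0.112 to 0.160 CPM (counts scaled to a common library size). This floor covers counting error only. Nothing in the labels says that the libraries came from separate animals, so p-values measure the spread between libraries, which may be technical.

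Some features of the libraries bear on every value below. Ddx25, the targeted gene, was at 538 to 607 normalized CPM in WT and 47.7 to 90.9 in KO. In KI it was at 0.0456 to 0.519 in 5 libraries and at 56.9 in the library labelled KI 4, inside the KO range and against the label. Reads were counted on mouse genes, and KI mice carry a human GRTH gene, whose transcripts may not be counted as Ddx25. This was not tested, so these values do not give the level of GRTH transcript in KI. The library labelled KI 4 was also closer to KO 2 than any other pair of libraries were to each other, with a pair index of 1.59. This index is the median squared difference between 2 libraries over the genes, divided by the value that counting noise gives, so that 1 stands for counting noise. Within genotypes, 6 pairs stood close together: in WT, libraries 1 with 2 (2.14), 3 with 4 (2.86) and 5 with 6 (3.02); in KO, libraries 4 with 5 (2.07); in KI, libraries 1 with 2 (2.61) and 3 with 5 (2.66). The next pair was at 4.64. Counts of IFT and BBSome genes called against WT are therefore given with and without the library labelled KI 4. They are also given with each close pair summed to 1 library. Other KI values include the library labelled KI 4 unless the text says otherwise.

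The cell type was examined with marker lists. The 9 RS markers, led by Acr, had summed normalized CPM (mean ± SD, n = 6 per genotype) of 840 ± 143 for WT, 772 ± 166 for KO and 664 ± 95.7 for KI. By edgeR 1 of 9 was called lower in KO and 4 of 9 in KI, or 3 of 9 in KI without the library labelled KI 4. The 10 genes listed as markers of elongating spermatids, led by Prm2, summed to 19610 ± 2296 in WT, 3726 ± 1024 in KO and 3292 ± 471 in KI. All 10 were lower in both genotypes. The study reports that RS of KO and KI fail to elongate. It also states that Prm2 and Tnp2 are already transcribed in RS and translated later, so this list is not particular to elongating cells. The 6 Leydig cell markers, led by Cyp17a1, summed to 12.4 ± 4.10 in WT, 41.2 ± 10.1 in KO and 36.3 ± 22.9 in KI, and all 6 were higher in both. Markers of spermatocytes (8 genes, the most abundant Sycp2) summed to 1177, 1215 and 1232 (WT, KO and KI in turn, as for the lists that follow). Of these, 3 were called higher and 1 lower in KO, and 2 higher and 1 lower in KI. Without the library labelled KI 4, 1 was higher and 1 lower in KI. Markers of spermatogonia (7 genes, Id4) summed to 52.3, 74.9 and 67.2, with 3 higher in KO and 2 in KI. The library labelled KI 4 had the highest KI sum, 94.0 against 54.0 to 68.7, and without it 1 of these markers was higher in KI. Those of Sertoli cells (8 genes, Clu) summed to 16.9, 14.8 and 14.5, with 2 lower in each, and those of macrophages (6 genes, Adgre1) to 5.56, 7.63 and 8.98, with 1 higher in each. Endothelial and myoid markers (5 genes) summed to 6.85, 5.70 and 4.50, and within this list Myh11 was lower in KO and KI (means of 2.63, 0.902 and 0.795), whereas Acta2 was higher in KO (1.07, 1.96 and 1.36). In these lists 0 genes were at or under 3 counts in every library. The part of these shifts in the values of IFT and BBSome genes was not tested, and in bulk RNA fewer cells of a type and less RNA per cell cannot be told apart.

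In WT the IFT and BBSome genes were well expressed. On the scale of normalized CPM per kb of exon, 27 of the 28 tested genes lay above the median of all tested genes. Ift43, a small IFT-A subunit, was highest at 78.2 ± 15.3 CPM per kb (SD, n = 6), followed by the IFT-A subunit Ift140 at 68.9 ± 4.36 and the large IFT-B subunit Ift172 at 58.4 ± 4.85. Ttc8, a BBSome subunit, was lowest at 1.85 ± 0.385. In the order of levels 4 of the 27 neighbouring pairs had WT libraries that did not overlap: Ift140 above Ift172, Ift57 above Bbs9, Ift46 above Bbs1, and Bbs4 above Ttc30a1. The other neighbours overlapped. Among the 28 tested genes, those of IFT-A ran from 23.95 (Ttc21b) to 78.2 CPM per kb and those of the BBSome from 1.85 to 28.5 (Bbs9). In the IFT-B core Ttc30a2 was at 56.8 ± 17.9 and its paralog Ttc30a1 at 2.55 ± 0.488.

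**Figure D1:**
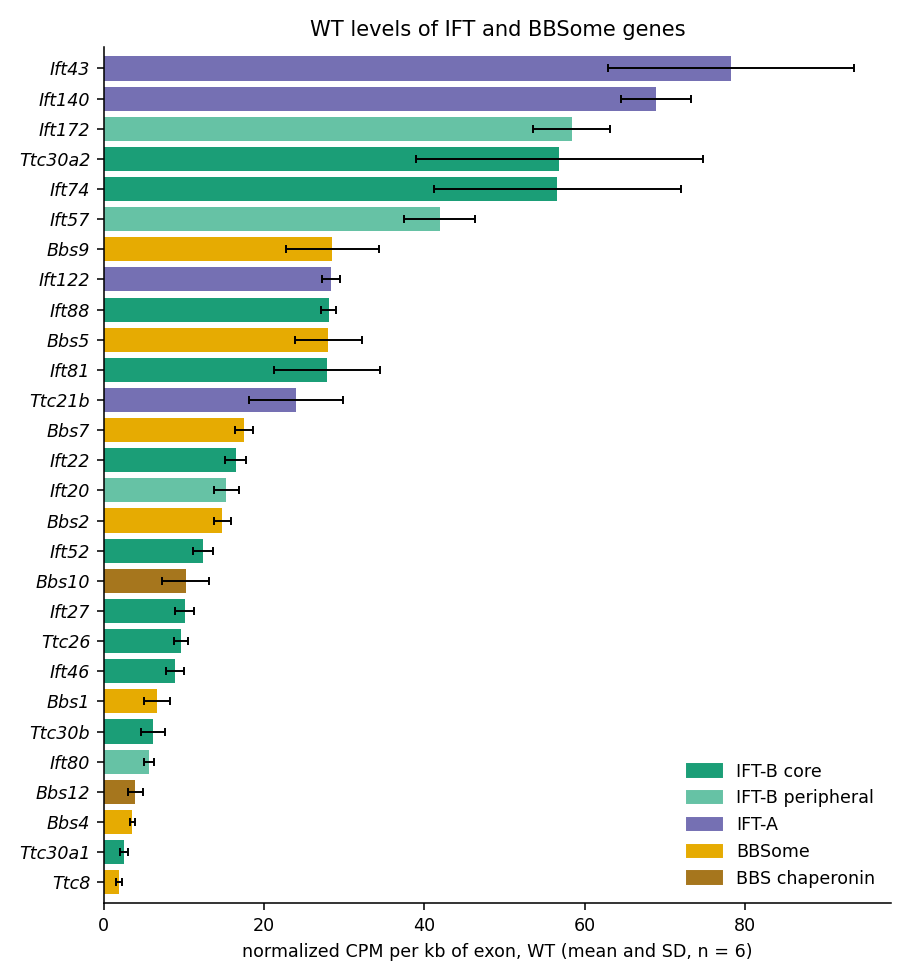
Levels of the 28 tested IFT and BBSome genes in WT RS, in normalized CPM per kb of merged exon (horizontal axis), as the mean of 6 libraries with the SD as error bar and the complex as colour. Levels run from 78.2 for Ift43 to 1.85 for Ttc8, with the 4 IFT-A genes among them at 23.95 and above and no BBSome gene among them above 28.5.

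Promoters of cilia genes often hold an X-box, the site bound by RFX factors, so the members' promoters were searched. A promoter sequence of RefSeq (GRCm38.p6), from 250 bases before to 50 bases after the start, was matched for 24 of the 29 genes. The letters GTNNCC and GGNNAC with 1 to 3 bases between them (GTNNCCNGGNNAC, GTNNCCNNGGNNAC and GTNNCCNNNGGNNAC, each the same on both strands) were found in 7 of the 24 promoters (29.2%), against 3.50% of all 32851 promoters of that length, in which a gene with several starts counts more than once. The median GC content was 56.7% in the members and 52.7% in all promoters. The 7 genes were Bbs1, Bbs4, Bbs7, Ift22, Ift57, Ttc26 and Ttc30a2. Of these, Ift57 and Ttc26 are among the genes called below and the other 5 are not, and the matches of both called genes are shown with 3 of uncalled genes (Ift22 has another match, not shown). Each match, a description of letters and not of binding, is in capitals with 8 bases on either side, on the strand of the gene, and distances run from its first base to the start:
Ift57, first match, 87 bases before the start (chr16:49699199-49699228, plus strand): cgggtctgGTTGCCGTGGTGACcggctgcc
Ift57, second match, 60 bases before the start (chr16:49699226-49699254, plus strand): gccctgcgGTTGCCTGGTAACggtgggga
Ttc26, 33 bases before the start (chr6:38381483-38381512, plus strand): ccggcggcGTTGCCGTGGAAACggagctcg
Ift22, 33 bases before the start (chr5:136908109-136908138, plus strand): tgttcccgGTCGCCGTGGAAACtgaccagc
Bbs7, 121 bases before the start (chr3:36613489-36613518, minus strand): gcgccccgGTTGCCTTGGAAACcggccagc
Ttc30a2, 24 bases before the start (chr2:75978182-75978211, minus strand): gttggcttGTTGCCATGGGAACaagcacac

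The Ift57 promoter was also the only one of the 24 that held the letters TGACGTCA, which read the same on both strands and form the consensus of cAMP response elements. They stood in 1.79% of all promoters.

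KO and KI were each compared with WT, sharing the same 6 WT libraries. In KO, 7 of the 28 tested genes changed by any amount (25%; 29.9% of all 21058 tested genes were called) at an adjusted p under 0.1 in edgeR's quasi-likelihood test. Ift46, Ttc30a1, Ift80 and Ttc26, all of IFT-B, were upregulated (4 genes, with 16.4% of all genes called higher). Ift57 of IFT-B and the BBSome subunits Bbs5 and Bbs9 were downregulated (3 genes, with 13.5% of all genes called lower). In KI 7 members were called, where 31.6% of all genes were. Ift46, Ttc30a1, Ift80 and Ttc26 were higher (16.1% of all genes), and Ift57, Bbs5 and Bbs9 were lower (15.4% of all genes). Since both comparisons use the same WT libraries, their values stand side by side below and are no independent support for each other. Without the library labelled KI 4 the count in KI was 8, with Bbs12 added to the downregulated genes, against 30.3% of all genes.

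When the close pairs of libraries were summed, Ift46, Ttc30a1 and Ift57 remained called in KO and in KI, 3 genes in each, where 15.8% of all genes were called in KO and 14.8% in KI. With the pairs summed and the library labelled KI 4 left out, KO kept these 3 (15.6% of all genes) and KI kept Ift57 and Ttc30a1 (12.2% of all genes). Scaling by total counts in place of TMM moved the median log2 fold change of all genes from 0.03 to 0.15 in KO and from 0.05 to 0.20 in KI, and gave 7 members higher and 1 lower in KO (35% of all genes called) and 10 higher and 2 lower in KI (38.5%). Upper-quartile scaling gave 5 higher and 2 lower in KI (32.7%). The shares over all genes for these scalings count calls in either direction. No share by direction is given for them, so the split of the members into higher and lower has nothing to stand beside.

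As a group the genes moved little. The median log2 fold change over the 28 genes was 0.05 in KO, where that of all tested genes was 0.03, and 0.09 in KI, where that of all genes was 0.05. The median absolute log2 fold change was 0.14 in KO and 0.22 in KI, beside 0.28 and 0.29 over all genes. Most members lay above the median level of all tested genes, and this comparison was not matched for level. The summed normalized CPM of the members was 3093 ± 92.8 for WT, 3264 ± 375 for KO and 3220 ± 444 for KI (SD, n = 6). In such a sum, as in a signed median, rises and falls can cancel. For a change past 1 log2 unit, glmTreat called 0 members in KO, with 1 at an unadjusted p under 0.05, and 0 in KI, with 0 at an unadjusted p under 0.05. DESeq2 called 0 members past 1 log2 unit in either genotype. Over all genes 1.73% passed this test in KO and 1.95% in KI.

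**Figure D2:**
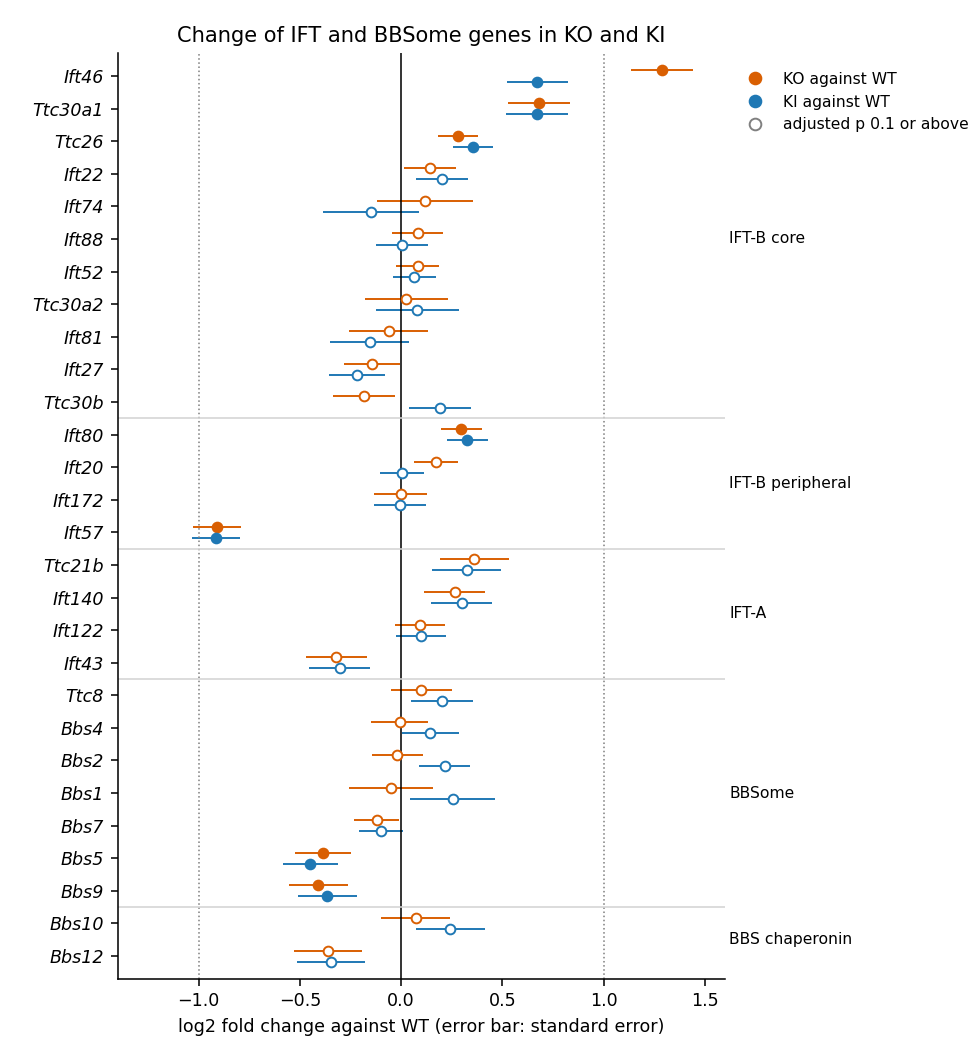
Log2 fold change against WT (horizontal axis) of the 28 tested genes in KO (orange) and KI (blue), grouped by complex, with the standard error from edgeR as error bar. Filled points had an adjusted p under 0.1. The 7 called genes lie in IFT-B and the BBSome, and Ift46 in KO lies farthest from 0 at 1.29.

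Of the 11 genes of the IFT-B core, 3 were higher in KO and in KI and 0 were lower, where 16.4% of all genes were higher in KO and 16.1% in KI. Ift46, a core subunit known for carrying outer dynein arms, showed the largest change of any member in KO. It lies on chromosome 9 (chr9:44767908-44793447, GRCm38), 9.21 Mb from Ddx25. Its level in WT was 50.8 at the lowest, 53.6 at the median and 67.9 normalized CPM at the highest library. In KO these values were 110.2, 135 and 178. In KI they were 65.4, 93.6 and 122. Every KO library was above every WT library, and the KI range overlapped both: KI 3 was below the highest WT library, and the library labelled KI 4, at 122, was above the lowest KO library. The other KI libraries reached 101 at most, below every KO library. Means with SD over 6 libraries were 56.8 ± 7.17 for WT, 139 ± 23.6 for KO and 90.5 ± 21.1 for KI. By edgeR, the log2 fold change of KO was 1.29 (SE 0.15, adjusted p = 1.6e-06). That of KI was 0.67 (SE 0.15, adjusted p = 0.0019, edgeR), and 0.57 without the library labelled KI 4 (adjusted p = 0.0064, edgeR).

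Among the 15 tested genes within 250 kb of Ift46, 5 were higher and 1 lower in KO, and 3 were higher and 1 lower in KI, beside the 29.9% and 31.6% of all genes called. The higher ones included Ddx6, an RNA helicase of RNA granules, at a log2 fold change of 0.76 in KO and 0.76 in KI. The lower ones were AC061963.1 in KO, whose mean normalized CPM was 1.19 for WT, 0.0450 for KO and 0.863 for KI, and Cd3d in KI, whose mean was 2.99 for WT, 2.01 for KO and 1.11 for KI. These 3 neighbours were chosen after their values were seen. Of the other members on chromosome 9, Bbs9 lies 12.65 Mb and Bbs4 23.76 Mb from Ddx25.

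Ttc30a1 encodes an IFT70 protein, which binds IFT52. After Ift46 it had the largest rise in KO, and it had the lowest WT level per kb of the called members. WT libraries ran from 6.59 through a median of 10.3 to 10.9 normalized CPM, KO libraries from 12.98 through 15.3 to 17.6, and KI libraries from 12.2 through 13.9 to 20.7. Neither KO nor KI overlapped WT. Its log2 fold changes by edgeR were 0.68 for KO (adjusted p = 0.0024) and 0.67 for KI (adjusted p = 0.0025), each with an SE of 0.15. Its paralogs were not called: Ttc30a2 had WT, KO and KI libraries that overlapped widely, from 87.8 to 188, 104 to 171 and 106 to 189 normalized CPM, and Ttc30b was at 11.2 to 22.5 over all 18 libraries. The 3 paralogs share sequence. Of the 50-base stretches of the Ttc30a1 transcript, 31.8% also occur in another Ttc30 transcript, and the share was 53.9% for Ttc30a2 and 34.8% for Ttc30b. Reads that align equally well to several places were not counted, and how many this removed was not measured, so these levels are uncertain.

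Ttc26 encodes IFT56, a core subunit known for carrying motility proteins into cilia. Its levels were 38.3, 45.4 and 50.2 normalized CPM at the lowest, median and highest WT library, 47.6, 55.5 and 60.7 in KO, and 52.3, 57.8 and 61.7 in KI. KI lay wholly above WT and KO overlapped it. KO differed from WT by 0.28 on the log2 scale (adjusted p = 0.043, edgeR) and KI by 0.35 (adjusted p = 0.010, edgeR), with an SE of 0.10 for each. Its call in KO was lost without WT 2, without the filter on low counts and with the close pairs summed.

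The 8 other core genes, Ift22, Ift27, Ift52, Ift74, Ift81, Ift88, Ttc30a2 and Ttc30b, were not called in KO or KI. Over the whole core, log2 fold changes in KO ran from -0.18 for Ttc30b to 1.29 for Ift46, with a median of 0.08. Ift74 and Ift81, which together form the tubulin-binding module, had ranges that overlapped in all genotypes. Ift74 ran from 121 to 212 normalized CPM in WT, 98.6 to 331 in KO and 105 to 185 in KI. Its highest values were in KO 1 and in WT 1 and WT 2, a close pair. The summed RS markers were highest in the same libraries, at 1074 in KO 1 against 586 to 771 in the other KO libraries, and at 954 in WT 1 and 1028 in WT 2 against 648 to 875 in the other WT libraries. Tex36 excepted, each RS marker was higher in KO 1 than in the other KO libraries. In KO 1 the summed spermatocyte markers were the highest among KO libraries too, at 1401 against 1069 to 1253. In WT this sum was highest in WT 6, at 1307. Single spermatocyte markers did not move together in KO 1: Syce1 and Sycp1 were the highest among KO libraries, at 433 and 251, while Spo11 and Hormad1 were the lowest, at 45.0 and 88.3. The part of these markers in the values of Ift74 and Ift81 was not tested.

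Of the 4 peripheral IFT-B genes, 1 was higher and 1 lower in KO and in KI, beside 16.4% higher and 13.5% lower over all genes in KO and 16.1% and 15.4% in KI. Ift57, which binds IFT20, showed the largest fall of any member. WT libraries ran from 109.7 through a median of 114 to 137 normalized CPM, KO libraries from 54.0 through 62.2 to 75.2, and KI libraries from 54.2 through 61.4 to 76.4. The 12 mutant libraries all lay below the 6 WT libraries. By edgeR this was a log2 fold change of -0.91 for KO (adjusted p = 6.57e-06) and -0.92 for KI (adjusted p = 5.06e-06), each with an SE of 0.12. These calls held under all 29 alternatives tried. Its promoter held 2 X-box-like matches, as did that of the uncalled Ift22, and also TGACGTCA. The part of these letters in the fall was not tested.

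Ift80, a peripheral subunit whose loss causes skeletal ciliopathy, was at 58.4, 70.8 and 79.3 normalized CPM in WT, 79.2, 84.4 and 96.4 in KO, and 81.0, 87.1 and 99.3 in KI at the lowest, median and highest library. KI did not overlap WT, and KO met it only at the lowest KO library. The rise was 0.30 on the log2 scale for KO (adjusted p = 0.035, edgeR) and 0.33 for KI (adjusted p = 0.020, edgeR), with an SE of 0.10 for each, and both calls were lost with the close pairs summed. Several predicted genes overlap Ift80 on the same strand, and reads in such overlaps were not counted. Ift20, which sorts cargo at the Golgi, and Ift172 were not called, and Ift20 was at 0.17 in KO and Ift172 at -0.01 in KI on the log2 scale.

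Counted by libraries that did not overlap WT, 3 members stood apart in KO (Ift46 and Ttc30a1 higher, Ift57 lower), where 13.1% of all genes did so, 6.62% higher and 6.44% lower. In KI 4 stood apart (Ift80, Ttc26 and Ttc30a1 higher, Ift57 lower), where 13.9% of all genes did so, 5.97% higher and 7.91% lower.

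**Figure D3:**
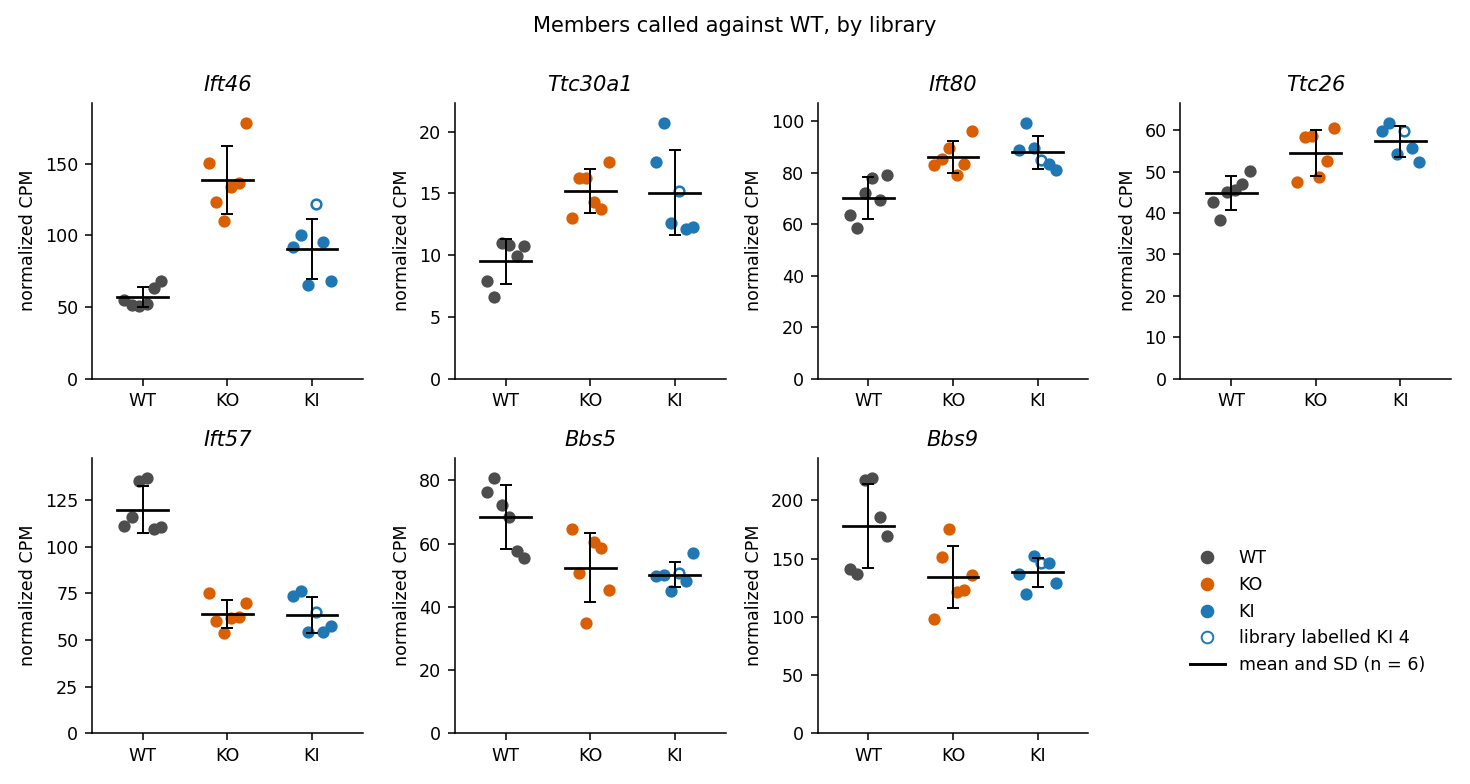
Normalized CPM (vertical axes, from 0) of the 7 called members in each of the 18 libraries, with the mean and SD of 6 libraries per genotype and the library labelled KI 4 as an open circle. Ift57 is lower in all 12 KO and KI libraries than in WT, and Ift46 is higher in KO (110.2 to 178) than in WT (50.8 to 67.9), with KI (65.4 to 122) overlapping both.

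None of the 4 IFT-A genes taken by symbol was called in KO or KI, where 29.9% and 31.6% of all genes were, and with 4 genes this does not set IFT-A apart. The symbols leave out other IFT-A subunits, among them Wdr19, which was called higher in KI and is described with the rest of the pathway. Ttc21b, also known as IFT139, had a log2 fold change of 0.36 in KO (SE 0.17, adjusted p = 0.13, edgeR) and 0.32 in KI. Ift140 had 0.26 and 0.30, Ift122 had 0.09 and 0.10, and Ift43 had -0.32 in KO (SE 0.15, adjusted p = 0.13, edgeR) and -0.30 in KI. Ift140 was high in KI 1 and KI 2, a close pair at 807 and 853 normalized CPM, and in KO 1 and KO 6 at 741 and 768. The WT libraries reached 580.2 at most, and KO 4, KO 5 and KI 6, at 593, 651 and 588, were also above this.

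Of the 7 BBSome genes, 2 were lower in KO and in KI and 0 were higher, where 13.5% of all genes were lower in KO and 15.4% in KI. Bbs5, a subunit with PH-like domains that bind phosphoinositides, was at 55.3, 70.4 and 80.7 normalized CPM in WT at the lowest, median and highest library, 34.9, 54.6 and 64.4 in KO, and 45.0, 49.95 and 57.1 in KI. Its KO libraries overlapped the low WT libraries 5 and 6, and its KI libraries overlapped WT 6. KO differed by -0.39 on the log2 scale (adjusted p = 0.043, edgeR) and KI by -0.45 (adjusted p = 0.018, edgeR), with an SE of 0.14 for each. In KO the call was lost under 4 of the 29 alternatives, among them leaving out WT 2, and both calls were lost with the close pairs summed.

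Bbs9, a scaffold of the BBSome, was at 136, 177 and 219 normalized CPM in WT, 98.2, 129 and 175 in KO, and 119, 141 and 152 in KI. Both mutant ranges overlapped WT, whose lowest libraries were the close pair WT 1 and WT 2 at 141 and 136. The difference on the log2 scale was -0.41 for KO (adjusted p = 0.046, edgeR) and -0.36 for KI (adjusted p = 0.072, edgeR), with an SE of 0.15 for each. Its call in KI was lost under 14 of the 29 alternatives, among them leaving out any 1 of WT 3 to WT 6, KI 1, KI 2 or KI 6, and its call in KO under 5, among them leaving out WT 3 or WT 4.

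Bbs1, Bbs2, Bbs4, Bbs7 and Ttc8 were not called. Within KI, Bbs1, Bbs2 and Bbs4 were high in the same libraries. Bbs1, which contacts the small GTPase ARL6, was at 64.3 and 63.7 normalized CPM in KI 3 and KI 5, a close pair, and at 48.1 in KI 6, while the other KI libraries were at 28.5 to 31.9. Bbs2 was at 75.5 and 67.1 in KI 3 and KI 5 against 45.2 to 55.5 in the others, and Bbs4 at 30.9 and 31.0 against 16.8 to 24.2. Some other members were low in KI 3, KI 5 and KI 6. Ttc21b was at 221, 195 and 243 there, against 324 to 347 in the other KI libraries. Ttc30a2 was at 106, 106 and 119 against 175 to 189, and Ift43 at 72.5, 85.0 and 99.1 against 114 to 131. These low members were named after their values were seen. The summed Leydig cell markers were low in the same 3 KI libraries, 17.3 in KI 3, 13.4 in KI 5 and 18.7 in KI 6, against 48.3 to 68.9 in the others. So were the summed RS markers, at 525 in KI 3, 570 in KI 5 and 677 in KI 6, against 717 to 768 in the others. The summed spermatocyte markers were higher in these 3 libraries, at 1382, 1404 and 1230 in turn, against 1079 to 1177 in the others. Single spermatocyte markers did not move together. Sycp2 was higher there, at 763, 759 and 576 against 363 to 387. Lower there were Sycp3, at 82.9, 84.7 and 82.5 against 103 to 115, and Sycp1, at 144, 133 and 151 against 164 to 179. The part of these lists in these values was not tested. The chaperonin-like genes Bbs10 and Bbs12, which help to assemble the BBSome, were not called over all libraries. Bbs12 was at a log2 fold change of -0.36 in KO (adjusted p = 0.13, edgeR) and -0.35 in KI (adjusted p = 0.14, edgeR), and at -0.41 in KI without the library labelled KI 4 (adjusted p = 0.095, edgeR).

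**Figure D4:**
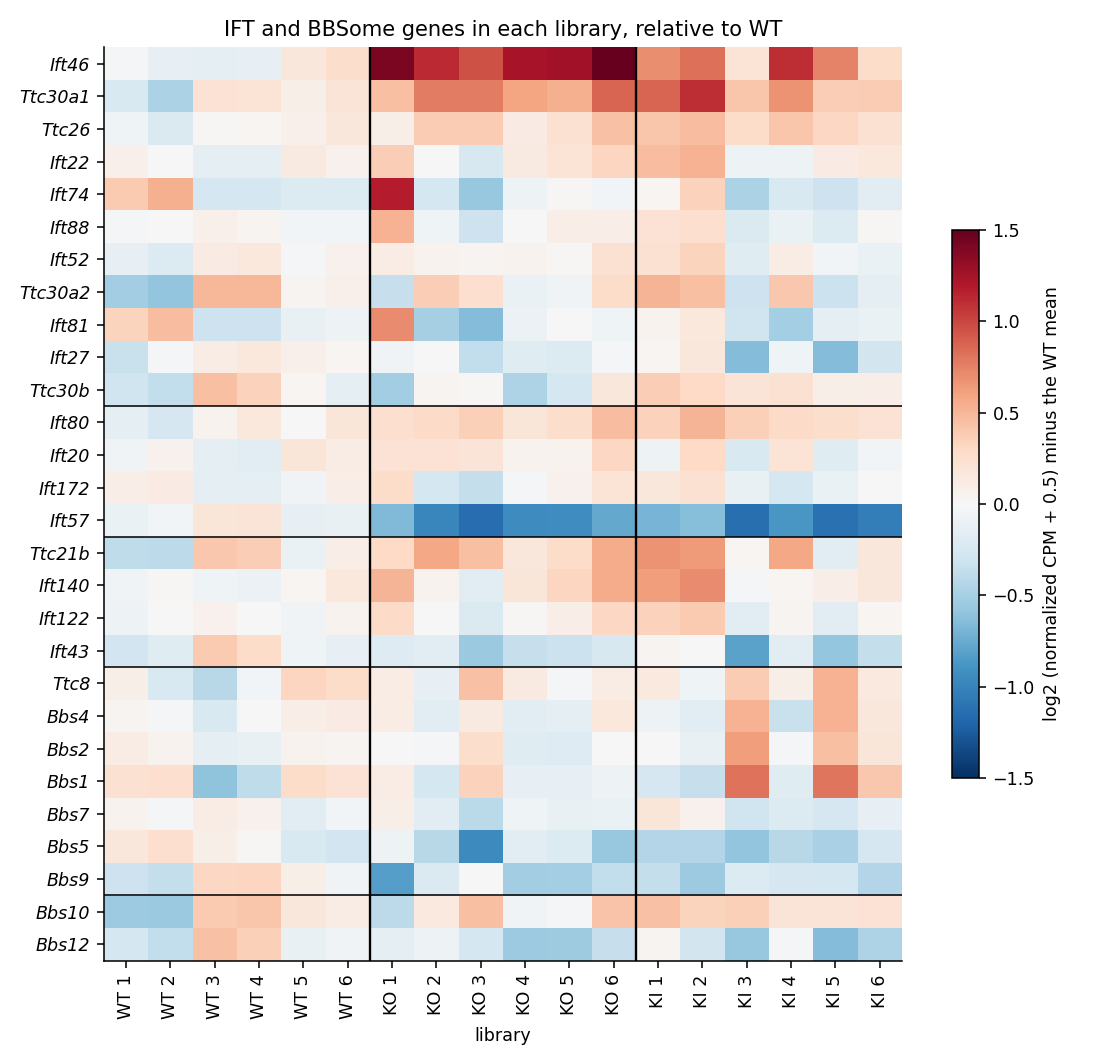
Level of each tested member in each of the 18 libraries, as log2 of normalized CPM plus 0.5 minus the mean of the WT libraries (colour, from -1.5 to 1.5), with members grouped by complex as in the plot of fold changes. Ift46 and Ift57 differ from WT in all KO libraries, while Ift74 and Ift81 in KO 1, and Bbs1, Bbs2 and Bbs4 in KI 3 and KI 5, stand out within a genotype.

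KI was also compared with KO directly. None of the 28 genes was called by edgeR, where 0.0997% of all genes were, and 2 members, Ift46 and Ttc30b, had an unadjusted p under 0.05. Libraries of KI and KO overlapped for all 28 members, and 0.223% of all genes did not overlap. DESeq2 called 1 of them, Ift46, where it called 0.345% of all genes. Its log2 fold change of KI against KO was -0.62 (SE 0.15, adjusted p = 0.25, edgeR). Without the library labelled KI 4 it was -0.72 (SE 0.15, adjusted p = 0.032, edgeR), and Ift46 was the 1 member called, where 0.522% of all genes were. With the close pairs also summed it was not called. The median log2 fold change of KI against KO over the members was 0.02, and that of all genes was -0.02.

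The rest of the pathway was described with 46 genes that the symbols do not take in: IFT and BBSome subunits with other names, the motors, their regulators, and the RFX and FOXJ1 transcription factors of cilia genes. In KO 10 of the 46 were called by edgeR (21.7%), 4 higher and 6 lower, where 29.9% of all genes were called, with a median log2 fold change of 0.04. In KI 13 were called (28.3%, beside 31.6% of all genes), 7 higher and 6 lower, and without the library labelled KI 4 14 were (30.4%, beside 30.3%), 7 in each direction. None was called between KI and KO by edgeR or DESeq2, with 0 at an unadjusted p under 0.05. With the close pairs summed the counts were 6 in KO and 6 in KI, where 15.8% and 14.8% of all genes were called.

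Of the 19 motor genes, 3 were higher and 4 lower in KO, and 4 higher and 4 lower in KI, near the shares over all genes (16.4% higher and 13.5% lower in KO, 16.1% and 15.4% in KI). Kif17, a homodimeric kinesin-2 motor that is also known in male germ cells as a partner of the coactivator ACT, fell most. It was at 271, 351 and 503 normalized CPM at the lowest, median and highest WT library, at 31.5, 123 and 330 in KO, and at 58.8, 108 and 125 in KI. All KI libraries lay below WT, and so did all KO libraries but KO 1, which was at 330. For KO this gave a log2 fold change of -1.45 (SE 0.36, adjusted p = 0.0053, edgeR), or -1.94 without KO 1. For KI it gave -1.93 (SE 0.37, adjusted p = 4.6e-04, edgeR). Kifap3, the accessory subunit of kinesin-II, changed by -0.59 in KO and -0.69 in KI, calls lost with the close pairs summed, and its motor subunits Kif3a and Kif3b were not called.

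Among the dynein genes, Dynll2 fell, with means and SD over 6 libraries of 145 ± 21.9 normalized CPM for WT, 72.8 ± 18.9 for KO and 62.2 ± 10.3 for KI, with no overlap of WT by either. Its log2 fold change was -0.997 in KO (adjusted p = 1.29e-04, edgeR) and -1.22 in KI (adjusted p = 1.1e-05, edgeR). Dynll1 changed by -0.47 in KO and -0.55 in KI, calls likewise lost with the pairs summed. Both are light chains that other dyneins and other proteins also use. Wdr34, an intermediate chain particular to dynein-2, rose from 27.8 ± 4.48 in WT to 45.0 ± 4.21 in KO and 49.1 ± 5.52 in KI, again without overlap, by 0.69 and 0.82 on the log2 scale (adjusted p = 1.22e-04 and 1.4e-05, edgeR). The light chains Dynlt1b (1.27 in KO and 0.98 in KI) and Dynlt3 (0.63 and 0.56) were also higher. The Dynlt3 call in KI was lost with the close pairs summed and the library labelled KI 4 left out. Dynlt1b has near-identical copies in the mouse genome, so its level is uncertain.

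Arl6, the small GTPase that recruits the BBSome to membranes and is itself a Bardet-Biedl gene, changed by -0.43 in KO (adjusted p = 0.025, edgeR) and -0.34 in KI (adjusted p = 0.071, edgeR). Its call in KO was lost with the close pairs summed, and that in KI under 13 of the 29 alternatives, among them other scalings and leaving out WT 3, WT 4, KI 3, KI 5 or KI 6. Of the 6 RFX and FOXJ1 factors, Rfx3 was lower and Rfx7 higher in both genotypes, 2 of 6 beside the 29.9% of all genes called in KO and 31.6% in KI. Rfx3, a regulator of motile cilia genes, averaged 84.9 ± 13.6 normalized CPM for WT, 59.5 ± 8.65 for KO and 55.2 ± 9.22 for KI. Its log2 fold change was -0.51 in KO (adjusted p = 0.0067, edgeR) and -0.62 in KI (adjusted p = 0.0013, edgeR). Rfx2, required in RS for flagellar genes, averaged 197 ± 38.5, 195 ± 59.3 and 183 ± 46.9 and was not called. Rfx7 was at a log2 fold change of 0.32 in both, calls lost with the close pairs summed and, in KO, without WT 3. The genes called in KI and not in KO were Wdr19, the IFT-A subunit IFT144, at 0.39 in KI (adjusted p = 0.056, edgeR), Cdk20, a cilium-related kinase, at 0.36 (adjusted p = 0.070, edgeR), and Dync2h1, the dynein-2 heavy chain, at 0.27 (adjusted p = 0.065, edgeR), and none of them was called between KI and KO. These calls were lost under 7, 8 and 9 of the 29 alternatives. All 3 were lost with the close pairs summed and without WT 1 or WT 2, Wdr19 and Cdk20 also without KI 1 or KI 2, Cdk20 without the library labelled KI 4, and Dync2h1 without WT 5, KI 3 or KI 5. Rfx7, Cdk20, Dync2h1, Kif3a, Kif3b and Rfx2 were named after their values were seen.

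**Figure D5:**
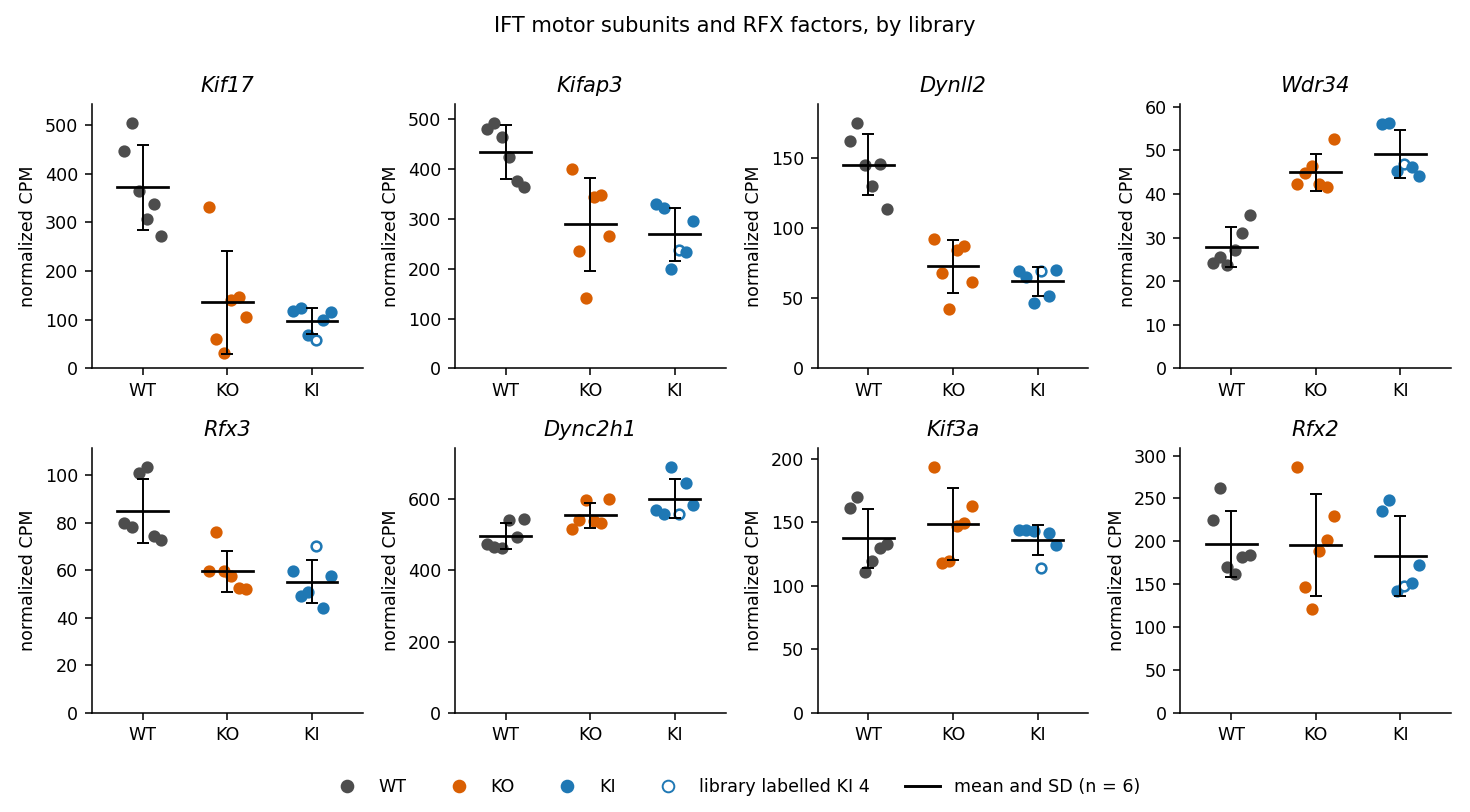
Normalized CPM (vertical axes, from 0) of 5 called genes (Kif17, Kifap3, Dynll2, Wdr34, Rfx3), Dync2h1, which was called in KI, and 2 uncalled ones (Kif3a, Rfx2) in each library, with the mean and SD of 6 libraries per genotype and the library labelled KI 4 as an open circle. Kif17 in KO 1 (330) stands with the WT libraries and apart from the other KO libraries.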

How the data were processed

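The authors deposited raw counts, which per the file headers and the study's methods are of read pairs per gene of GENCODE M18 (cutadapt 3.4 for trimming, STAR 2.7.8a for alignment to GRCm38, featureCounts of Subread 2.0.1, by strand, without reads that fit several genes, duplicates kept). Exon lengths are the authors' values in the same table. Symbols came from GENCODE M21. Counts were used unchanged in edgeR 4.0.16 (R 4.3.3): filterByExpr (21058 genes kept), TMM factors and 1 quasi-likelihood model of genotype over all 18 libraries. A gene was called at a Benjamini-Hochberg adjusted p under 0.1, by glmQLFTest for any change and glmTreat for changes past 1 log2 unit. The method was tested on simulated data. Levels are CPM on TMM-scaled library sizes. The 29 alternatives include DESeq2 1.42.0, other scalings, filters and fits, close pairs (index under 4, over genes with at least 20 counts) summed, and each library left out. Members and gene lists were chosen with earlier results of these data known. All called members were named, and of the other pathway genes the called ones with the largest changes, up to 10, and some more that the text says were chosen after their values were seen. Figures used Python 3.11.15 and matplotlib 3.10.9.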

Additional observations from a re-analysis of the deposited data

Results flagged for a closer look

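In each group of 6 libraries, a member whose highest or lowest library lay far from the rest, by Dixon's criterion, was looked for in 84 groups (28 genes in 3 genotypes). About 1 in 20 groups meets it by chance, and 2 did. Both were in KO 1 and both belong to the tubulin-binding module of IFT-B. Ift74 was at 331 normalized CPM in KO 1 and at 98.6 to 148 in the other KO libraries, a gap of 0.789 of the range. Ift81 was at 262 in KO 1 and at 102 to 159 in the others, a gap of 0.643. Neither gene was called in KO or KI. KO 1 also stood apart in other measures: the summed RS markers were at 1074 against 586 to 771 in the other KO libraries, Spaca1 among them at 289 against 108 to 151, Kif17 was at 330 against 31.5 to 147, and Rfx1 at 123 against 22.9 to 60.6. Their part in the Ift74 and Ift81 values was not tested.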

How the results depend on the processing

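Of the 14 calls of members against WT, 5 held under all 29 alternatives: Ift46 in KO, and Ift57 and Ttc30a1 in KO and KI. Ift46 in KI was lost under 1 of them (close pairs summed and without the library labelled KI 4, adjusted p = 0.118, edgeR). Of 70 results not called, 14 were called under some alternative, and 0 called results reversed. With the close pairs summed, called members fell from 7 to 3 in KO and from 7 to 3 in KI, and other pathway genes to 6 and 6. Over all genes the shares called fell too, from 29.9% to 15.8% in KO and from 31.6% to 14.8% in KI. With the library labelled KI 4 also left out, members were 3 in KO and 2 in KI, and other pathway genes 6 and 5. Here 15.6% of all genes were called in KO and 12.2% in KI. Total counts gave 12 members in KI, where 38.5% of all genes were called, and 16 other pathway genes in KO, where 35% were. Between KI and KO, DESeq2 called 1 member (0.345% of all genes), and leaving out 1 library in turn gave 0 to 1 (0.0375% to 0.522% of all genes). The replicate numbers did not pair the libraries: same-numbered libraries had deviations that correlated between -0.44 and 0.48 over 18 pairs, 7 of them over 0.1, and 4 libraries correlated best with their own number. The replicate block gave 7 members in KO, 7 in KI and 0 between KI and KO, beside 29.8%, 31% and 0.109% of all genes. The share of member promoters with an X-box-like match was 20.8% in the 250 bases before the start, with 2.92% of all promoters, and 29.2% with a spacer of 2 bases, with 1.88% of all. The count of close pairs limits how many independent libraries stand behind each p, and levels of the Ttc30 paralogs and of Ift88os are limited by shared sequence and by depth.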
